A study of Mus musculus with 34 samples.

Results

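Histone deacetylases remove acetyl groups from lysines of histones and of many other proteins. The genes followed here are Hdac1 to Hdac9 and Hdac11, chosen by symbol, which makes 10 of the 11531 genes listed for mouse hippocampus. Their mRNA and their ribosome footprints were measured in 5 groups of C57BL/6N hippocampus: single-caged mice without stimulus (control), and others at 5 min, 10 min, 30 min and 4 h past a session of contextual fear conditioning. In that session a mouse explored a chamber for 148 s, after which its feet received a 2 s shock. Each group had 3 ribosome footprint libraries (RPF) and 3 RNA libraries. Embryonic stem cells (ESC) of the line A3-1, treated with an siRNA against luciferase for 48 h, and a hippocampal primary culture from C57BL/6N mice gave 1 library of each kind apiece. All lysates, controls included, contained 100 µg/ml cycloheximide, which holds ribosomes in place on mRNA. The labels do not say whether replicates are separate or pooled mice. The p-values therefore describe the spread among these libraries, part of which could be technical.

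The family is grouped by sequence and cofactor. Class I enzymes (Hdac1, Hdac2, Hdac3 and Hdac8) are mostly nuclear. Hdac1 and Hdac2 form the catalytic core of the Sin3, NuRD and CoREST corepressor complexes, Hdac3 works in the NCoR complexes, and Hdac8 acts outside them, with cohesin among its known substrates. Class IIa members (Hdac4, Hdac5, Hdac7 and Hdac9) have weak catalytic activity, bind MEF2 transcription factors and move between nucleus and cytoplasm, held in the cytoplasm by 14-3-3 proteins after phosphorylation. Hdac6, of class IIb, deacetylates tubulin in the cytoplasm, and Hdac11 alone forms class IV. In mouse hippocampus, Hdac2 and Hdac3 are known for restraining the formation of long-term memory.

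RefSeq promoter sequences (build GRCm38.p6, from 250 bases before the start of a gene to 50 after it) were kept for 8 of the 10 genes, all but Hdac1 and Hdac3. The 4 below belong to the members the results turn on: Hdac2, Hdac6 and Hdac11, whose RNA differed by 2-fold or more between ESC and hippocampus, and Hdac5, whose footprints were lowest soon after conditioning. Capitals mark the GC box GGGCGG, or CCGCCC where it lies on the other strand, and the E-box CACGTG, which reads the same on both strands.
Hdac2, chr10:36974294-36974593, plus strand: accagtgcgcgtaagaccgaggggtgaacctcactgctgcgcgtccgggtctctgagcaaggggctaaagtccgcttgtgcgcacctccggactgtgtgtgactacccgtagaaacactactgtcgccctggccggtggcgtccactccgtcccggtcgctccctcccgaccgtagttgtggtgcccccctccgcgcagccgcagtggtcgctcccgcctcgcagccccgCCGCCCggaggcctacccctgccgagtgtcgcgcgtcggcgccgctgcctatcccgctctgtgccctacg
Hdac6, chrX:7947840-7948139, minus strand: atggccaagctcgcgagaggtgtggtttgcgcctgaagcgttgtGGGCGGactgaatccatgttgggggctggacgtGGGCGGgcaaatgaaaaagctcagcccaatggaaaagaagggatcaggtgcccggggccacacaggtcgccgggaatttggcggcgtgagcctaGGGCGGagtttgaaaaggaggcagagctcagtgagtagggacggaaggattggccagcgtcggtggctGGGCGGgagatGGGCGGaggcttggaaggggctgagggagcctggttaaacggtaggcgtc
Hdac11, chr6:91156565-91156864, plus strand: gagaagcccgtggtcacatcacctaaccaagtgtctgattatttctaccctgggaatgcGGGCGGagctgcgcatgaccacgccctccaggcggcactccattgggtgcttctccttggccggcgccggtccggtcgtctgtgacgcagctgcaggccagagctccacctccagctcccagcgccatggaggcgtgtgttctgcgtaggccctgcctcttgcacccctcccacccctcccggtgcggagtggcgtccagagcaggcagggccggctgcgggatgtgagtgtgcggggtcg
Hdac5, chr11:102230123-102230422, minus strand: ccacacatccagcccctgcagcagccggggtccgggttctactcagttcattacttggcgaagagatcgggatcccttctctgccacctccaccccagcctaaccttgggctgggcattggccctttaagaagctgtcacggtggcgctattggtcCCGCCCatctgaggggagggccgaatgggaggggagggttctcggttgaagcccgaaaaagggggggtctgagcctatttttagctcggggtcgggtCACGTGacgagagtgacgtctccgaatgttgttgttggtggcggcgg
The Hdac6 window held 5 GC boxes, and those of Hdac2, Hdac11 and Hdac5 held 1 each. Any entry of a member on 1 particular chromosome had been left out, which was not done for the 32841 promoters below. Over the member promoters kept, 6 of 12 held at least 1: those of Hdac8 and Hdac9 and all but 1 of those of Hdac7 held none. Of 32841 RefSeq promoters of this length, 35.7% held a GC box on either strand. Among the members kept, Hdac5 was the only one with CACGTG in its window, which 7.15% of promoters held. The letters TGACGTCA of the cAMP response element were in none of the 12 promoters of members and in 1.79% of all. A match here is a run of letters and was not tested as a binding site.

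Signals are reads on a gene divided by a number that is fixed for each library, so a gene can be compared between libraries, whereas levels of different genes cannot be compared because no gene length was at hand. Tissue RPF libraries held 14240563 to 30480009 reads on listed genes and tissue RNA libraries 16814796 to 25515210. Members differed in how many reads stood behind them: Hdac11 had 1399 to 2898 footprint reads a library and Hdac5 had 896 to 1931, while Hdac7 had 90 to 167 and Hdac8 had 101 to 263. In RNA libraries Hdac7 was down to 49 to 124 reads. The ESC libraries held 65147288 footprint and 16686790 RNA reads, and the culture 18771379 and 7282564. The 5 neuronal markers checked (Rbfox3, Snap25, Syt1, Slc17a7 and Tubb3) were all listed in the tissue, as were those for astrocytes, oligodendrocytes, microglia, endothelium and choroid plexus, so the tissue libraries hold many cell types. Arc, an activity-regulated gene, served as a check of conditioning: at 30 min its RPF signal was 7.94 ± 0.331 (SD, n = 3), against 4.51 ± 0.697 in control, a log2 change of 0.81 (SE 0.14). By limma that change passed with the replicate number as a block (adjusted p = 3.53e-05) and missed without it (adjusted p = 0.198).

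The first question was whether conditioning changed ribosome occupancy or mRNA of any histone deacetylase. No member passed the test at any time, in footprints, RNA or translational efficiency (TE, footprints relative to RNA). Changes were small: over the 4 times they ran between -0.22 and 0.14 on the log2 scale in footprints and between -0.19 and 0.16 in RNA. The widest footprint change belonged to Hdac5, at 5 min. Limma, fitted over all 11531 genes with Benjamini-Hochberg adjustment and a threshold of 0.05, called 0 of 10 members in each of the 12 contrasts, both without and with the replicate block. The background was as thin: in footprints 0.0% of genes were called at 5 min, 0.00867% at 10 min, 0.00867% at 30 min and 0.0% at 4 h, and in RNA and TE 0.0% at every time. With the replicate block the shares were 0.0% at 5 min, 0.0434% at 10 min, 0.052% at 30 min and 0.0% at 4 h in footprints, 0.0347%, 0.0434%, 0.0347% and 0.0434% in RNA at the same times, and 0.0% in TE. An unadjusted p under 0.05 was reached by 112 genes in footprints at 5 min and 91 at 10 min (0.971% and 0.789% of genes), Hdac5 among them each time. At 30 min 0.529% of genes and at 4 h 0.963% did so, with no member among them. In RNA no member did so at any time without the block, against 1.33% of genes at 5 min, 1.92% at 10 min, 1.79% at 30 min and 2.83% at 4 h. All these shares are smaller than a cut of 0.05 gives when nothing changes, so p-values without the block run high.

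**Figure D1:**
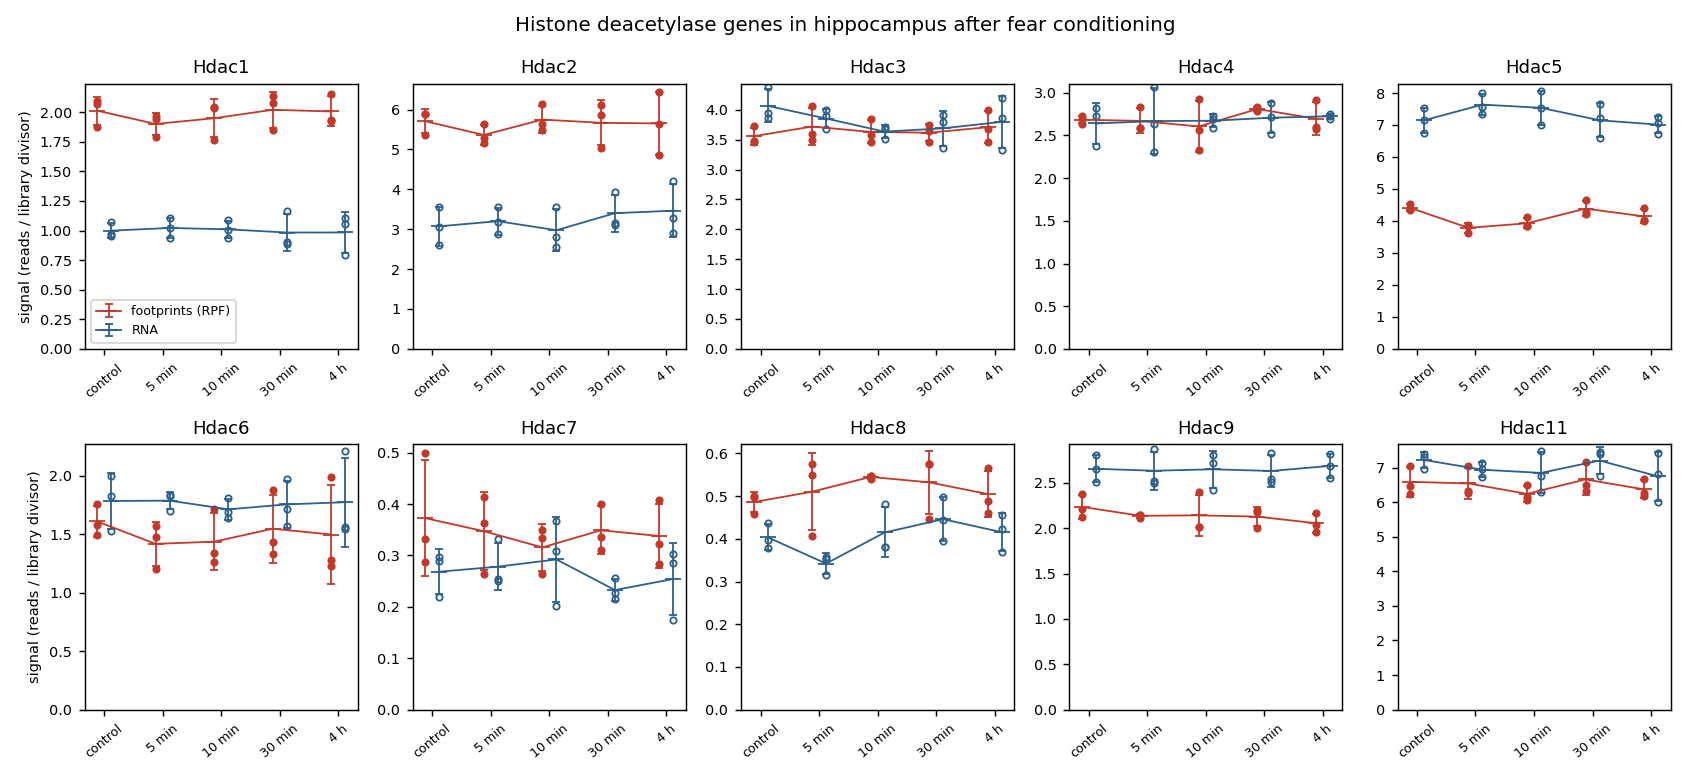
Signal (reads divided by the divisor of the library) of each histone deacetylase gene in hippocampus, for control and 4 times after conditioning; points are libraries, and the line with bars is the mean ± SD of 3. Hdac5 footprints at 5 min, between 3.61 and 3.88, lie below the 3 controls, between 4.33 and 4.53, while RNA of Hdac5 does not.

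How often the 3 libraries of a time all lay above, or all below, the 3 controls sets the scale for what follows. In footprints 3.44% of genes lay below at 5 min, 1.97% at 10 min, 0.997% at 30 min and 1.85% at 4 h, and 1.82%, 1.65%, 1.28% and 1.78% above. In RNA 2.15%, 2.03%, 1.4% and 2.19% lay below at these times, and 3.01%, 5.4%, 4.27% and 4.8% above. Over these 16 combinations members did so 6 times: Hdac5 below and Hdac8 and Hdac4 above in footprints, and Hdac8 and Hdac3 below in RNA, with Hdac5 counted at 2 times.

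Among class I genes, Hdac1 footprints averaged 2.01 ± 0.118 in control, 1.90 ± 0.0936 at 5 min, 1.95 ± 0.162 at 10 min, 2.02 ± 0.152 at 30 min and 2.01 ± 0.127 at 4 h (SD, n = 3 each). Its RNA stayed between 0.79 and 1.16 over all 15 libraries. For Hdac1 the groups overlapped at every time.
Hdac2 RNA was 3.57, 3.06 and 2.60 in control, 3.55, 2.88 and 3.17 at 5 min, 3.56, 2.81 and 2.56 at 10 min, 3.93, 3.12 and 3.16 at 30 min, and 4.201, 3.28 and 2.91 at 4 h. All groups overlapped, and the replicate labelled 1 was the highest in each of the 5 groups. At 4 h Hdac2 RNA was above the same-numbered control in 3 of 3 replicates, a log2 change of 0.16, and its footprints were above in 2 of 3 with a change of -0.02. Neither passed.
Hdac3 RNA was 3.68, 3.51 and 3.72 at 10 min, against 3.86, 4.39 and 3.96 in control, so that these groups did not overlap (log2 change -0.16). It was the one member whose RNA at 10 min lay wholly below control, where 2.03% of genes did so. Its footprints ran the other way by a small amount, at 0.03.
Hdac8, on the X chromosome, was lower in RNA at 5 min without overlap, at 0.358, 0.353 and 0.315, against 0.437, 0.396 and 0.378 in control (2.15% of genes did so). Its footprints at 10 min lay above control without overlap, at 0.548, 0.540 and 0.547, against 0.501, 0.458 and 0.498, as they did for 1.65% of genes. None of these class I differences reached an unadjusted p under 0.05 without the replicate block. With the block, limma gave Hdac3 RNA at 10 min an unadjusted p of 0.0309 (adjusted p = 0.457), and Hdac2 RNA 0.0307 at 30 min and 0.0168 at 4 h (adjusted p = 0.500 and 0.247). The share of all genes with an unadjusted p under 0.05 in the block fits was not counted. The shares given above are those without the block, so these p-values are not read as results about the members.

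Class IIa holds the one member with an unadjusted p under 0.05 both without and with the block. Hdac5 encodes a repressor that leaves the nucleus when neurons are active. Its footprints were 3.88, 3.85 and 3.61 at 5 min, against 4.38, 4.33 and 4.53 in control. At 10 min they were 3.83, 3.84 and 4.11. Every library of both early times lay below every control, as the footprints of 3.44% of genes did at 5 min and of 1.97% at 10 min. By 30 min Hdac5 stood at 4.22, 4.66 and 4.27, and at 4 h at 4.03, 4.39 and 4.01, so that at 30 min 1 library lay above all controls and the others just below them, and at 4 h 1 library was among the controls and the others below.
Its mean at 5 min was 3.78 ± 0.148, against 4.41 ± 0.104 in control (SD, n = 3 each), a log2 change of -0.22 (SE 0.07). Unadjusted p by limma was 0.00800, or 0.00107 with the replicate block. The limma adjusted p over all genes was 0.9997, or 0.723 with the block. At 10 min the log2 change was -0.16 (SE 0.07, unadjusted p = 0.0343, limma adjusted p = 0.99999, or 0.00871 and 0.9993 with the block). At 30 min it was -0.01 and at 4 h -0.09. The 95% interval of the change at 5 min ran between -0.37 and -0.07, before any allowance for the number of genes tested. Ordered by p-value, Hdac5 was number 5 of 11531 genes at 5 min and number 49 at 10 min, or number 13 and number 73 with the block. Over all 4 times, limma's F-test gave Hdac5 an unadjusted p of 0.0306 and an adjusted p of 0.999999 by limma, or 0.00347 and 0.710 with the block.
Its RNA was 8.003, 7.34 and 7.57 at 5 min, against 7.53, 6.76 and 7.14 in control, a log2 change of 0.10, with all 3 replicates above the same-numbered control. The groups overlapped. TE of Hdac5, which is the ratio of footprints to RNA on the log2 scale set against the median gene, was -1.02, -0.94 and -1.05 at 5 min, against -0.77, -0.66 and -0.68 in control. These groups did not overlap. At 10 min TE was -1.03, -0.97 and -0.75, which overlapped control. Taken before the median gene is subtracted, TE lay wholly below control in 4.57% of genes at 5 min, 5.16% at 10 min, 3.23% at 30 min and 4.33% at 4 h. Hdac5 and Hdac6 were the 2 members that did so at 5 min, and no member did at the later times.
As an interaction of library kind and time, the TE change of Hdac5 at 5 min was -0.31 (SE 0.10, unadjusted p = 0.00405, limma adjusted p = 0.99996, or 0.362 with the block). At 10 min it was -0.24 (SE 0.10, unadjusted p = 0.0226, limma adjusted p = 0.99999, or 0.621 with the block). In TE an unadjusted p under 0.05 was reached by 1.1% of genes at 5 min, 1.14% at 10 min, 0.555% at 30 min and 1.06% at 4 h, with Hdac5 the one member among them at the early times and none later. The median change over all genes was -0.01 and -0.04 at these times. In these bulk libraries, a change in the mix of cells and a change in footprints per cell cannot be told apart. The summed footprint signal of the 5 neuronal markers was 444 to 462 at 5 min and 416 to 460 in control, and that of the 3 CA1 markers was 77.1 to 84.8 at 5 min and 64.6 to 78.7 in control. None of these markers was at 0, and their part in the Hdac5 difference was not tested.

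**Figure D2:**
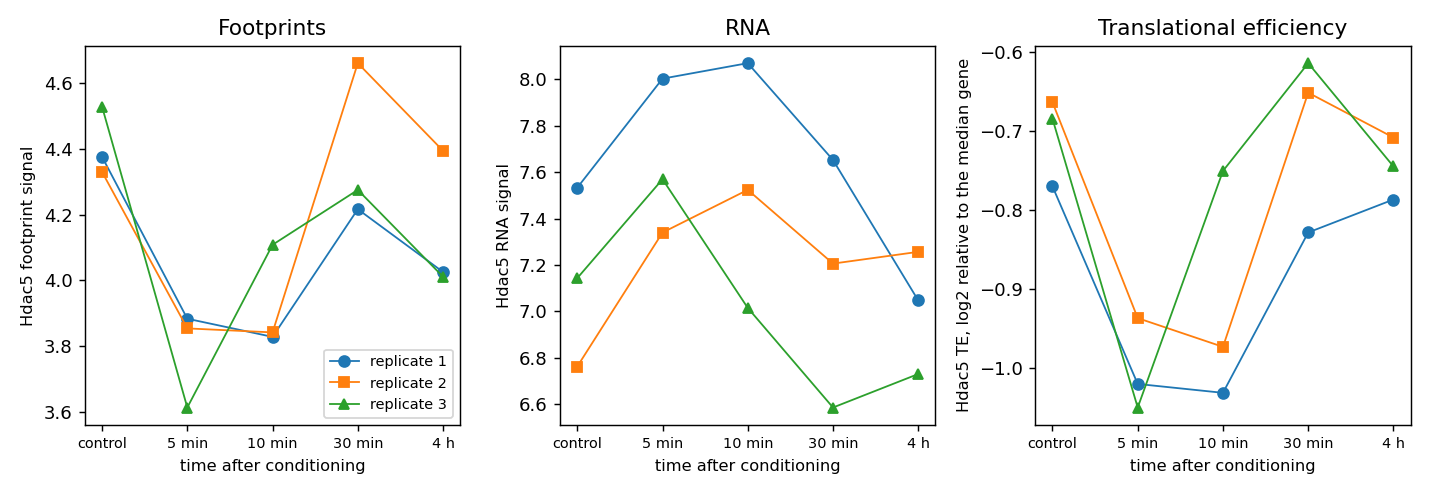
Hdac5 footprint signal, RNA signal and TE (log2, relative to the median gene) in control and at 4 times after conditioning, 1 line per replicate number; axes do not start at 0. Footprints of all 3 numbers are lower at 5 min (3.61 to 3.88) than in control (4.33 to 4.53), and RNA is not.

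The genes whose footprints followed Hdac5 most closely were found by Pearson correlation over the 15 libraries, after the mean of each replicate number was taken out. They were Ccni, which encodes cyclin I (r = 0.90), Rheb, the GTPase that switches on mTORC1 (0.90), Cnot7, a deadenylase of the CCR4-NOT complex (0.89), Rc3h1, an RNA-binding protein that shortens the life of mRNAs (0.87), and Prkcz, an atypical protein kinase C (0.85). All genes of a library share its depth, its tissue and its time point, and so r is a description. These 5 were picked as the highest of all genes, so other members are set against all genes instead. Hdac6 had r = 0.36, higher than 86.8% of genes, and Hdac9 0.28, higher than 79.1%. Hdac3 was the lowest member at -0.30, higher than 9.82% of genes.

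Among the other class IIa genes, Hdac4 footprints ranged over 2.33 to 2.93 and its RNA over 2.30 to 3.07. At 30 min its footprints were 2.84, 2.79 and 2.81, against 2.72, 2.69 and 2.64 in control, a log2 change of 0.06 without overlap. Such a rank order was found in 1.28% of genes at that time, and the change missed an unadjusted p of 0.05. Hdac9, known also for a short form without the deacetylase domain, ranged over 1.96 to 2.40 in footprints and 2.42 to 2.88 in RNA, and its groups overlapped at every time. Hdac7, studied chiefly in vessels and the thymus, ranged over 0.26 to 0.50 in footprints and 0.17 to 0.37 in RNA. It had the widest spread of all members, with a coefficient of variation of 18.8% in footprints and 19.9% in RNA, beside 7.21% and 6.02% for Hdac5.

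Hdac6 footprints were 1.57, 1.48 and 1.21 at 5 min, against 1.76, 1.58 and 1.495 in control, lower in 3 of 3 replicates with a log2 change of -0.18 that did not pass. The groups overlapped. Its RNA was 1.84, 1.83 and 1.70 at 5 min, against 1.997, 1.83 and 1.53 in control. Its TE against the median gene was -0.21, -0.31 and -0.47 at 5 min, against -0.17, -0.24 and -0.07 in control, which overlapped. Hdac11 footprints ran between 6.07 and 7.17 and its RNA between 6.00 and 7.48, with every time overlapping control.
TE of Hdac3 lay above control at all 4 times. It was -0.07, 0.00212 and -0.11 at 5 min, -0.01, -0.04 and 0.05 at 10 min, -0.04, 0.01 and -0.06 at 30 min, and -0.07, 0.05 and -0.08 at 4 h, against -0.15, -0.26 and -0.22 in control. All 12 later values lay above all 3 controls. The share of genes that do so at all 4 times together was not counted. The TE changes of 0.13, 0.18, 0.16 and 0.16 at these times did not pass (unadjusted p = 0.128 to 0.260), and they share the same controls. Before the median gene is subtracted, TE lay wholly above control in 3.11% of genes at 5 min, 1.75% at 10 min, 1.86% at 30 min and 2.49% at 4 h.

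The second question was how heavily each mRNA is loaded with ribosomes in the unstimulated hippocampus. TE takes out gene length where footprints and RNA are counted over the same part of the mRNA. The sources used here do not state which part was counted, and what this does to the order of genes was not tested. Hdac1 and Hdac2, the close paralogues of class I, were the highest of the family, and Hdac5 was the lowest. Relative to the median gene, TE of Hdac1 was 0.90, 1.01 and 0.84 in the 3 control pairs, a mean of 0.92 ± 0.09 (SD, n = 3), and that of Hdac2 was 0.71, 0.89 and 0.98, a mean of 0.86 ± 0.14. On a linear scale these are 1.89 and 1.81 times the median gene. With a pseudocount of 1 in place of 0.1, the log2 values were 0.58 for Hdac1 and 0.71 for Hdac2, which turned their order round. Both passed (limma adjusted p = 2.95e-08 and 4.25e-09), as did 40.9% of all genes in that direction, so a call by itself is common. Hdac1 stood higher than 86.6% of genes and Hdac2 higher than 84.9%.
Below the median gene, 4 members passed, where 40.5% of genes did: Hdac5 at -0.71 ± 0.06, Hdac9 at -0.26 ± 0.14, Hdac3 at -0.21 ± 0.05 and Hdac11 at -0.16 ± 0.12 (SD, n = 3 each; limma adjusted p = 1.83e-09, 0.00334, 0.00149 and 0.0379). TE of Hdac5 was 0.613 times the median gene. The calls of Hdac9 and Hdac11 were lost when replicate 1 was left out (limma adjusted p = 0.0521 and 0.146), and that of Hdac11 also without replicate 3 (0.225).
The remaining members did not pass: Hdac7 at 0.32 ± 0.23, Hdac8 at 0.20 ± 0.08, Hdac4 at 0.00346 ± 0.11 and Hdac6 at -0.16 ± 0.09. With a pseudocount of 1, Hdac7 was at 0.10, Hdac8 at 0.07 and Hdac6 at -0.10.

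Both ends of the order were the same over the time course, whereas the middle was not. Hdac5 had a lower TE than every other member in 15 of 15 library pairs, and Hdac1 and Hdac2 were each above Hdac3, Hdac4, Hdac5, Hdac6, Hdac8, Hdac9 and Hdac11 in 15 of 15. Between themselves, Hdac1 was above Hdac2 in 10 of 15, so these neighbours were not set apart. Further down the order, Hdac7 was above Hdac8 in 7 of 15, Hdac4 above Hdac11 in 10 of 15 and Hdac6 above Hdac11 in 5 of 15, and these neighbours were not set apart either. Hdac3, which lay below Hdac6 and Hdac11 by its control mean, was above Hdac6 in 13 of 15 pairs and above Hdac11 in 12 of 15. It was above Hdac9 in 14 of 15. Hdac4 was below Hdac8 in every pair. Within class IIa, TE thus spanned from 0.32 for Hdac7 to -0.71 for Hdac5, and within class I from 0.92 for Hdac1 to -0.21 for Hdac3.

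**Figure D3:**
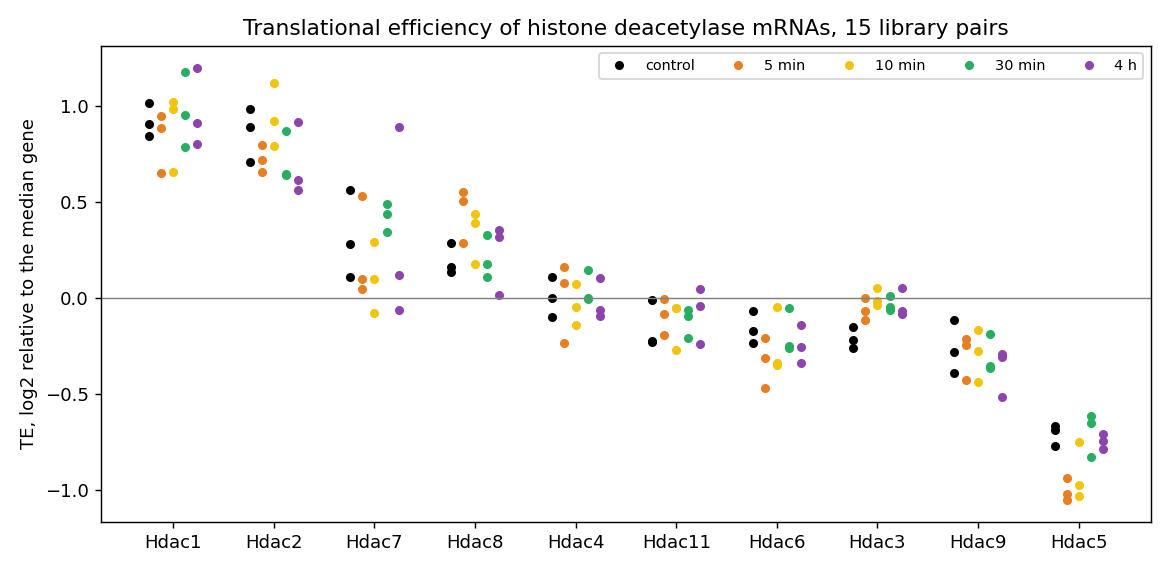
TE of each histone deacetylase gene (log2 of footprints over RNA, minus the median gene) in the 15 same-numbered library pairs, coloured by group; genes are ordered by their mean in control. Hdac1 and Hdac2 lie above 0 in all 15 pairs and Hdac5 between -1.05 and -0.61.

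Within each kind, libraries of the same replicate number resembled each other across groups, and some members followed the number rather than the time. In footprints 3 of 10 members differed between numbers (Hdac2, Hdac6 and Hdac7), where 64.0% of all genes did, and in RNA 7 of 10 (all but Hdac3, Hdac7 and Hdac8), where 55.5% did. Differences between numbers were thus common among genes at large, and the members' counts were not read further. Hdac6 footprints averaged 1.78 ± 0.160, 1.40 ± 0.123 and 1.32 ± 0.131 in replicates 1, 2 and 3 (SD, n = 5 each, limma adjusted p = 6.96e-05). Hdac2 RNA averaged 3.76 ± 0.294, 3.03 ± 0.189 and 2.88 ± 0.293 (limma adjusted p = 4.90e-07). Hdac7 footprints were lowest in replicate 1, at 0.282 ± 0.0192, beside 0.401 ± 0.0649 and 0.350 ± 0.0319 (limma adjusted p = 0.00207).
Markers moved with the number as well. The 6 choroid plexus markers summed to 1307 to 2079 in footprints of replicate 1, 918 to 1891 in replicate 2 and 67.9 to 492 in replicate 3. The 4 endothelial markers summed to 5.59 to 6.90, 4.35 to 5.15 and 3.98 to 4.76, and the 5 microglial markers to 40.9 to 44.9, 28.3 to 36.5 and 34.8 to 38.5. No marker of these lists was absent from the table, and their part in the differences of Hdac2, Hdac6 and Hdac7 was not tested.

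The third question was how the family differs between ESC, cultured hippocampal cells and the hippocampus. ESC and culture had 1 library of each kind and their tables were normalized separately, so levels were set against the median of the 8760 genes listed in all tables, and no test was made. Of the members, 9 were listed for ESC, where Hdac9 was not, and 9 for culture, where Hdac7 was not. The ESC table listed 5 of 5 pluripotency markers, with a summed footprint signal of 302, and 2 of 5 neuronal markers, with a sum of 10.1; Rbfox3, Snap25 and Syt1 were not listed. The culture listed 5 of 5 neuronal markers (226) and 4 of 5 astrocyte markers (146), but 1 of 5 for microglia (0.278) and none of 4 for endothelium. In the tissue, Sox2 was the one pluripotency marker listed, and neural cells express it too.

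In ESC, Hdac1 stood out: its footprint level was 17.6 times that of control hippocampus and its RNA level 18.4 times. In log2 units the footprint level relative to the median gene was 4.02 in ESC, from 31599 reads, against -0.11 ± 0.09 in control hippocampus (SD, n = 3), a difference of 4.14 (95% counting interval 4.12 to 4.15). RNA was 2.97 in ESC and -1.22 ± 0.06 in control hippocampus, a difference of 4.199. Few genes were higher in ESC by more. Counted with its sign, the footprint difference of Hdac1 exceeded that of 97.8% of the 9456 genes listed in both tables. Its RNA difference exceeded that of 98.5%. Genes lower in ESC by as much were not counted.
Hdac6 was 7.14 times higher in ESC footprints and 5.66 times higher in RNA, and Hdac2 2.63 and 4.87 times higher. In log2 units these are 2.84 and 2.50 for Hdac6, and 1.39 and 2.28 for Hdac2.
At the other end, Hdac11 was 38.0 times lower in ESC footprints and 26.9 times lower in RNA. It had 155 footprint and 68 RNA reads in ESC, and the log2 differences were -5.25 (interval -5.48 to -5.02) and -4.75 (-5.11 to -4.41). Hdac5 was 2.73 times lower in ESC footprints and 1.64 times lower in RNA. Hdac7 was 3.81 times lower in footprints from 85 reads and 1.32 times lower in RNA from 51 reads. Hdac3, Hdac4 and Hdac8 stayed within 2-fold in both kinds, between -0.78 and 0.58 in log2 units.
By 2-fold or more, 3 of 9 members were higher in ESC footprints (background 34.1% of genes) and 3 lower (31.3%), and in RNA 3 were higher (33.2%) and 1 lower (31.1%). As a count the family is therefore near the background. By size and with its sign, the footprint difference of Hdac11 exceeded that of 2.64% of genes, and that of Hdac6 90.6%. The differences of Hdac2, Hdac5 and Hdac7 lay further from the ends, above those of 72.7%, 25.4% and 19.8% of genes. Of class IIa, Hdac4, Hdac5 and Hdac7 were lower in ESC in both kinds, and Hdac9 was not listed. RNA of Hdac4 differed by only -0.20 and that of Hdac7 by -0.40 (interval -0.83 to -0.01). These RNA differences lay near the middle of all genes, above those of 44.3% and 40.9% of them. The share of all genes lower in both kinds was not counted, so this is not read as a trait of the class.

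The culture lay closer to the tissue. Hdac6 was 3.09 times higher in culture footprints and 1.72 times higher in RNA, and Hdac9 3.10 and 2.62 times higher. Hdac4 (1.91 and 1.57 times) and Hdac5 (1.68 and 1.52 times) were higher in culture in both kinds as well, below 2-fold. Hdac1 was 1.71 times lower in footprints and 1.65 times lower in RNA, and Hdac11 1.55 and 1.32 times lower. By 2-fold or more, 2 of 9 members were higher in footprints (background 11.2%) and 1 in RNA (8.93%), and 0 were lower in either kind (14.5% and 12.8%). In the same culture library neuronal and astrocyte markers were listed and those of endothelium were not. Their part in these differences was not tested.

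TE of Hdac1 was high in all 3 sources and that of Hdac5 low. Most listed members had a lower TE in ESC than in control hippocampus. The log2 differences were -1.53 for Hdac7, -0.98 for Hdac3, -0.88 for Hdac2, -0.73 for Hdac5, -0.58 for Hdac4 and -0.49 for Hdac11. Hdac1 differed by -0.06, and Hdac6 and Hdac8 were higher in ESC, by 0.34 and 0.26. How such differences are spread over all genes was not examined. Hdac1 had a TE of 0.98 in ESC (95% interval 0.94 to 1.02) and 0.98 in culture (0.64 to 1.34), against 1.02, 1.13 and 0.96 in control hippocampus. Hdac5 was low throughout, at -1.40 in ESC (-1.51 to -1.28) and -0.53 in culture (-0.62 to -0.43), against -0.73, -0.63 and -0.64 in control hippocampus. These values and those below use the median of the 8760 shared genes, with no pseudocount, and so the hippocampal ones differ a little from those above.
Hdac2 parted from Hdac1 in ESC. Its TE was 0.05 there (-0.01 to 0.10) and 0.64 in culture (0.51 to 0.77), against 0.78, 0.95 and 1.06 in control hippocampus, so the ESC value was near the median gene while RNA of Hdac2 was 4.87 times higher. Hdac3 was -1.14 in ESC (-1.24 to -1.05), against -0.10, -0.22 and -0.17 in control hippocampus, whereas the culture gave -0.15 (-0.30 to -0.01). Hdac6 was 0.73 in culture (0.57 to 0.89) and 0.22 in ESC (0.16 to 0.29), against -0.13, -0.20 and -0.02 in control hippocampus. Hdac8 was above the median gene in all 3 sources, at 0.56 in ESC (0.24 to 0.90) and 0.83 in culture (0.43 to 1.25), against 0.26, 0.22 and 0.41 in control hippocampus. Hdac4 was -0.52 in ESC and 0.34 in culture, against a mean of 0.06 ± 0.11 in control hippocampus (SD, n = 3). Hdac11 was -0.60 in ESC and -0.34 in culture, against -0.11 ± 0.12. Hdac7 was -1.05 in ESC, with a wide interval of -1.57 to -0.52, against 0.47 ± 0.27, and Hdac9 was 0.02 in culture, against -0.22 ± 0.14. The intervals cover counting error only, and with 1 library a source none of these differences has a replicate check.

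**Figure D4:**
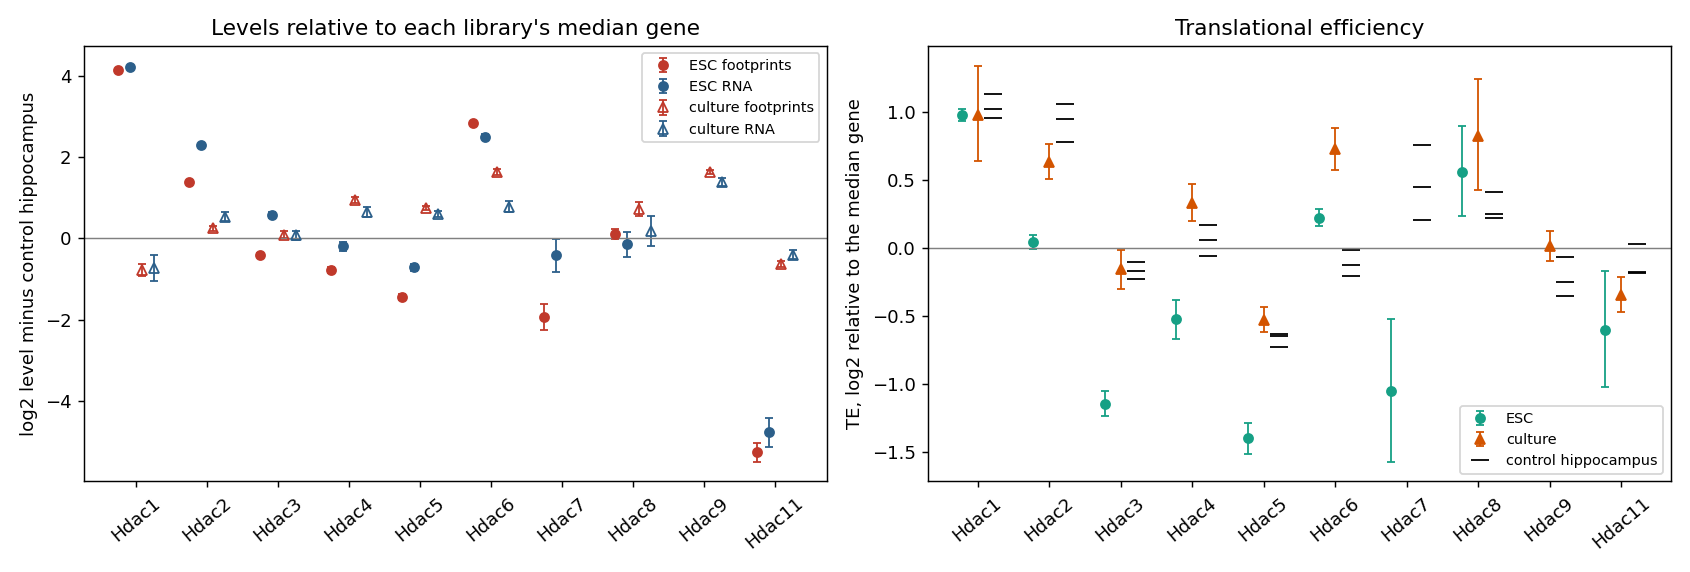
Left, levels of histone deacetylase genes in ESC and culture minus control hippocampus (log2, each relative to the median of shared genes; bars are 95% counting intervals of 1 library). Right, TE in ESC and culture with 95% counting intervals, and in the 3 control hippocampus pairs; Hdac1 and Hdac11 are at the ends on the left, at 4.14 and -5.25 in ESC footprints.

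Genes that work with the family were read in the same fits. Of 33 subunits of the Sin3, NuRD, CoREST and NCoR complexes, 7 sirtuins (the NAD-dependent deacetylases), 11 of 12 acetyltransferases, 14 of 17 class IIa partners and 3 BET proteins, which read acetyl-lysine, none passed in any of the 12 contrasts. Kat5, Mef2b, Sfn and Prkd2 were not listed. Median footprint changes at 5 min were -0.06 for the corepressors, -0.09 for the sirtuins, -0.07 for the acetyltransferases, -0.03 for the class IIa partners and -0.06 for the BET proteins, beside -0.01 over all genes and -0.06 over the 10 histone deacetylases.
Genes with the smallest unadjusted p in each list over footprints and RNA, none past the threshold, were these. Tbl1x, of the NCoR complex, had an RNA signal of 1.61 ± 0.139 at 4 h, against 1.83 ± 0.0258 in control. Sap30, of the Sin3 complex, had footprints of 0.670 ± 0.0519 at 10 min, against 0.545 ± 0.0893. Sirt5 RNA was 0.424 ± 0.0537 at 10 min, against 0.530 ± 0.0532, and Sirt6 RNA 0.187 ± 0.0153 at 4 h, against 0.265 ± 0.0593 in control. Their log2 changes were -0.18, 0.26, -0.27 and -0.34.
Hat1 RNA was 0.907 ± 0.0579 at 4 h, against 0.785 ± 0.128, and Kat6b RNA 10.7 ± 0.395 at 10 min, against 9.94 ± 0.168. Of the D kinases that phosphorylate class IIa enzymes, Prkd3 RNA was 2.64 ± 0.0597 at 30 min, against 2.30 ± 0.119, and Prkd1 RNA 1.18 ± 0.0334 at 5 min, against 1.05 ± 0.0127 in control. Of the BET genes, Brd2 had footprints of 0.400 ± 0.0502 at 4 h, against 0.346 ± 0.110 in control (SD, n = 3 throughout). The limma adjusted p of these 9 changes was 0.9995 to 0.99999 without the block and 0.222 to 0.9993 with it.

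TE of control hippocampus was read for the partners too. Among the corepressor subunits 14 of 33 passed above the median gene and 10 below (background 40.9% and 40.5%), from Gatad2b of NuRD at 2.62 ± 0.19 to Phf21a of CoREST at -2.55 ± 0.07 (SD, n = 3). Among class IIa partners 10 of 14 passed above and 3 below, led by the 14-3-3 gene Ywhae at 2.25 ± 0.16 and ending with Prkd3 at -1.58 ± 0.14. Sirtuins ran from Sirt2 at 1.47 to Sirt3 at -1.57, with 2 of 7 called above and 3 below, and acetyltransferases from Crebbp at 0.94 to Kat6b at -2.46, with 4 of 11 called each way. Among BET genes, Brd3 was lowest, at 0.06 ± 0.16 (SD, n = 3), and did not pass. The median TE of the lists was 0.02 for corepressors, 0.04 for sirtuins, -0.05 for acetyltransferases and 0.70 for class IIa partners.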

How the data were processed

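Ribosome footprints and RNA were measured in 15 hippocampus libraries each and in 1 library each of culture and ESC. Per the submitters' processing notes, CASAVA 1.8.2, Bowtie 1.1.1 and the genome mm9 were used; the sources used here do not say how reads were counted. The deposited values, of the unit signal, are whole reads (within 0.01) divided by 1 number per library, as the values show; the meaning of that number is not given. No column of sample values was left unused.

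Tests used limma 3.58.1 in R 4.3.3 (trend) on log2(signal + 0.1) for genes with a mean signal of at least 0.1. They had all 5 groups in 1 model and were 2-sided, adjusted by Benjamini-Hochberg over 11531 genes. They were checked on simulated data with 2-fold changes and no difference between replicate numbers. That check does not cover smaller changes, or libraries that differ by replicate number as these do. Fold changes are on that scale and understate those of low genes. A pseudocount of 1 with a filter at 1 would have removed the lowest members. TE changes are the interaction of kind and group in 30 libraries, and baseline TE comes from same-numbered pairs. Intervals for single libraries are exact (Poisson for levels, Clopper-Pearson for TE) at 95% and cover counting error only.

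Within each kind, libraries of the same replicate number went together. Deviations from group means correlated by 0.379 to 0.859 between same-numbered footprint libraries and by 0.258 to 0.755 in RNA. Between other numbers they correlated by -0.709 to 0.136 and by -0.726 to 0.0566. Deviations cancel within a group, which pulls these last values down. Whether footprint and RNA libraries of the same number belong together was not checked, and the TE pairs rest on the labels.

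The members and the lists were chosen with earlier results of these data known. All members are named. A member's change is given in full where its unadjusted p was under 0.05, and each list by its 2 genes of smallest unadjusted p and its extremes in TE. Results that this rule gives for 1 gene are not reported here. The genes most like Hdac5 are the 5 of highest Pearson r. Where a value lay outside that rule (such as groups without overlap), it was chosen after its values were seen. The alternatives were other pseudocounts, filters and centrings, a replicate block, robust and voom fits, and leaving out replicates.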

Additional observations from a re-analysis of the deposited data

Results flagged for a closer look

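Hdac2 RNA differed from the same-numbered controls in opposite directions at 10 min and at the later times. Its log2 change was 0.06 at 5 min, below control in 2 of 3 replicate numbers. It was -0.05 at 10 min, below control in 3 of 3 replicate numbers, and 0.15 at 30 min and 0.16 at 4 h, above control in 3 of 3. The later change exceeded the earlier one by 0.193 at 30 min and by 0.210 at 4 h. These differences were not tested, none of these changes passed by itself, and all of them share the same control libraries. The median RNA change over all genes was 0.03 at 10 min, 0.03 at 30 min and 0.02 at 4 h. The share of genes with such a pattern was not counted.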

How the results depend on the processing

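Under the alternatives run, no histone deacetylase was called in any time contrast of footprints, RNA or TE, or in the F-tests of footprints and RNA. The replicate block changed no call of a member. The filter at 1 removed Hdac7 and Hdac8, and Hdac1 in RNA and TE, so that alternative could not call them. Voom was not fitted to TE. With the replicate block the genes called over the whole table numbered 5 in footprints at 10 min and 6 at 30 min, in RNA 4, 5, 4 and 5 at the 4 times, and in the F-tests 10 in footprints and 19 in RNA, against 1, 1, 0 at each RNA time, 2 and 1 without it. Voom on recovered reads, chosen after seeing the data, called 1 gene in the F-test of footprints; with the replicate block, voom called 5 and 7 in footprints at 10 and 30 min, 5, 5, 5 and 4 in RNA, and 10 and 12 in the F-tests. A pseudocount of 1 with a filter at 1 called 0 in footprints at 10 min, at 30 min and in both F-tests. The count models planned were not run, although reads could be recovered from the deposited values. Of the fits, only voom used those reads. Leaving out 1 replicate gave 0 to 2 genes in footprints at 10 min, 0 to 1 at 30 min, and 1 to 4 and 0 to 2 in the F-tests of footprints and RNA; members differing between replicate numbers in RNA numbered 4 to 7 (4 without 30 min replicate 1 or 4 h replicate 2), and members called below the median gene in TE 2 to 4. Without a filter nothing changed, as every gene passed it.

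Baseline TE of Hdac4, never called, turned to -0.00527 when centred on summed signals, to -0.0500 without replicate 3 (0.0552 at most, without replicate 2) and to -0.00170 as a ratio of group means. With a pseudocount of 1, Hdac11 lost its call (limma adjusted p = 0.0525). Centring ESC and culture on all genes of each table shifted levels by 0.13 in ESC footprints and 0.13 in RNA, and by -0.11 and -0.15 in culture; counts past 2-fold kept their value, and the small culture differences of Hdac3 (0.09 and 0.07) became -0.02 and -0.08. Leaving out a control library, added after seeing the data, left these counts as they were. The centring moved 26 member values beyond their counting interval. Low depth limits Hdac7 and Hdac8 most.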
